A study of Homo sapiens with 6 samples.

Results

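Transcripts of OAT and of 6 other genes that make, break down or exchange proline and ornithine were examined in HEK293 cells, a line of human embryonic kidney origin. The genes were OAT, ALDH18A1, PYCR1, PYCR3, PRODH, ODC1 and ARG2, taken by symbol, with no threshold on a measured value in the rule. They were 7 of 63190 genes and held 59 of the 207167 transcripts listed. OAT was taken as the starting point because the study found oligo(U)-tailed fragments of its 5′ end bound to DIS3L2, a cytoplasmic 3′-to-5′ exoribonuclease that degrades uridylated RNA. The other genes share its pathway. RNA-seq was done on 3 libraries from cells that overexpressed the DIS3L2 D391N mutant, whose catalytic site is inactive, and on 3 libraries from control cells. Both groups were HEK293T-Rex cells that kept their own DIS3L2, and the mutant was a stably integrated transgene induced with doxycycline. Whether the controls for RNA-seq received doxycycline is not stated in the sources used here. The transgene, its induction and the cell line that carries it cannot be told apart. Nothing in the labels says that the 3 libraries of a group came from separate cultures, so p-values measure only the spread between these libraries, which may be technical.

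Proline and ornithine are joined through pyrroline-5-carboxylate (P5C), a reactive intermediate of the mitochondrion. ALDH18A1 makes P5C from glutamate, the PYCR enzymes reduce P5C to proline, and PRODH oxidises proline back to P5C. OAT interconverts ornithine and the semialdehyde form of P5C. ARG2, the mitochondrial arginase, releases ornithine from arginine, and ODC1 decarboxylates ornithine to putrescine, the first committed step of polyamine synthesis. Proliferating cells use the pathway to supply proline for protein and polyamines for growth.

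The sequence below is the boundary of exon 1 and intron 1 of OAT, shown because the study's OAT fragment lies at this 5′ end and because the transcripts of OAT differ in whether they hold this exon. It lies on chromosome 10 of GRCh37 at chr10:126107427-126107456, on the minus strand. Capitals mark the last 15 bases of exon 1, a noncoding exon of 51 bases, and lower case marks the first 15 bases of intron 1.
OAT exon 1 end and intron 1 start: CTCAGGCGCTGTCAGgtaccgtctgggcgc
Of the 8 OAT transcripts, only the protein-coding OAT-201 and OAT-208 begin with this exon region. OAT-204 begins at an exon of its own downstream and shares 549 of its 646 bases with OAT-201. Reads from the shared bases match both transcripts, so the split between them is an estimate.

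Levels are RPKM, the reads of a transcript scaled to its length and to the size of its library, and a gene's level is the sum over its transcripts. The precision of a value is given as equivalent reads, the number of uniquely assigned reads that would give the same posterior variance. These cover counting and assignment error only, so a low number can mean uncertain assignment and not few reads. The relative depth of the libraries, from the level given to transcripts without reads, ran from 0.689 to 0.858 among the D391N libraries and from 0.688 to 1 among the controls, as a ratio to the deepest library. Log2 gene levels of the D391N libraries correlated with each other across genes at Pearson's r of 0.885 to 0.935, and those of the controls at 0.959 to 0.977. DIS3L2, the targeted gene, was at 369, 467 and 512 RPKM in the D391N libraries against 11.8, 12.9 and 14.6 in the controls. It was higher by 5.08 on the log2 scale (SE 0.18, limma, adjusted p = 0.000268), which includes the transgene's own RNA. Of 7 genes commonly detected in HEK293 cells, 6 had a mean of at least 1 RPKM, and NEFM, at 0.37 RPKM, did not. As deposited, their summed level was 156 to 209 RPKM in D391N libraries and 224 to 286 RPKM in controls. Most of this sum was VIM, at a mean of 141 RPKM, the only gene of the 7 whose groups did not overlap. Hepatocyte markers reached a summed 0.901 to 1.52 RPKM, with 0 of 4 at 1 RPKM. Fibroblast markers (2 of 4 at 1 RPKM) summed to 5.67 to 10.9 RPKM in D391N libraries and 5.71 to 6.59 in controls. The summed level of blood markers (3 of 4) was 4.84 to 7.38 RPKM against 6.26 to 9.98, and that of mature kidney tubule markers (1 of 4) was 10.8 to 16.7 RPKM against 13.5 to 15.2. The part of these shifts in the results below was not tested. In bulk RNA, fewer cells with a transcript and less of it per cell cannot be told apart.

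The 7 genes spanned more than 2 orders of magnitude in level. OAT had the highest mean over the 6 libraries, 181 RPKM, rank 601 of 20714 genes tested. ODC1 followed at 132 RPKM and ALDH18A1 at 61.6 RPKM. ARG2 and PYCR1 lay close together at 26.5 and 22.6 RPKM. PRODH, at 1.66 RPKM, and PYCR3, at 1.33 RPKM, were near the limit of 1 RPKM for testing. The order of OAT and ODC1 was clear in the controls and overlapped in the D391N libraries. The levels of ARG2 and PYCR1 overlapped in the controls, and those of PRODH and PYCR3 overlapped within groups, so the order of these neighbours was not resolved.

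**Figure D1:**
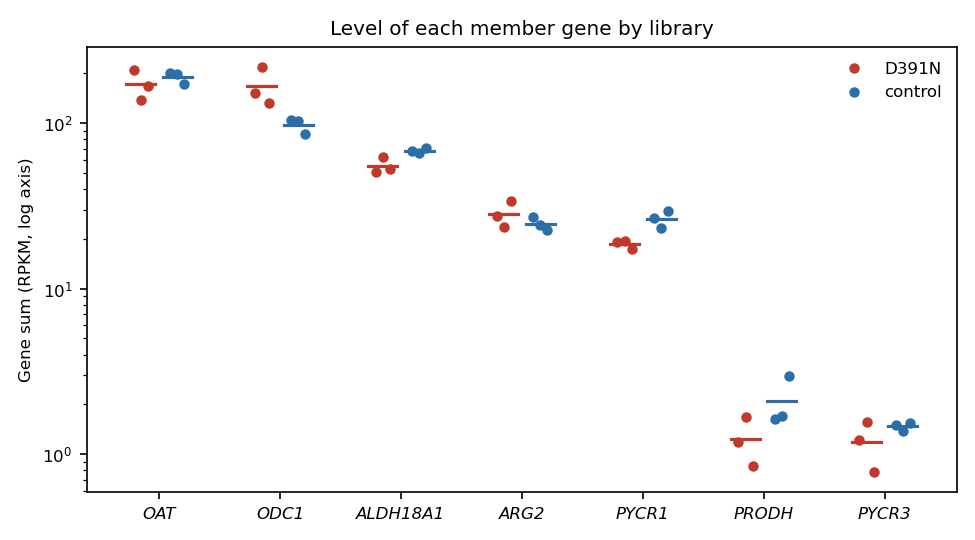
Gene levels of the 7 members in each library, as RPKM on a log axis, with a point per library and a bar at the mean of each group of 3. OAT, ODC1 and ALDH18A1 lie above 50 RPKM in every library, while PRODH and PYCR3 lie below 3 RPKM.

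The deposited RPKM values summed to 1196020 in D391N replicate 1, 741119 in D391N replicate 2 and 890783 in D391N replicate 3, and to between 1205480 and 1285540 in the controls. The 50 most abundant transcripts held 17.0% of the sum in D391N replicate 2, 34.6% and 46.7% in the other two D391N libraries, and 42.8% to 46.6% in the controls. Values below are on the deposited scale unless a scaling is named. Scaling every library to the same total, an alternative chosen after seeing the data, moved the median difference of all genes by 0.42 on the log2 scale, and centring on the median moved it by 0.22. The part of the totals in the differences below was not tested beyond this, and directions that turn with the scale are given with each member. The share of a gene held by a transcript does not depend on the scale of the library.

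None of the 7 gene sums differed between D391N and control cells at an adjusted p under 0.05 (limma on log2(RPKM + 0.1)), where 0.14% of all 20714 genes tested were called (0.00483% higher and 0.135% lower in D391N cells). Without adjustment, 2 of the 7 had p under 0.05, ODC1 with higher values in D391N cells (6.76% of all genes) and PYCR1 with lower values (16% of all genes), against 22.7% in both directions. The count was 1, ODC1, with median centring (24.1% of all genes) or with equal totals (20.1%). It was 4 without D391N replicate 2, against 4138 of all 20714 genes. The groups did not overlap for 3 of the 7, against 31.2% of all genes. These were ALDH18A1 and PYCR1, lower in every D391N library (20.7% of all genes), and ODC1, higher in every D391N library (10.5% of all genes). The median log2 difference was -0.31 over the members and -0.09 over all genes, and 0.12 and 0.33 with equal totals. Of the 7 differences, 5 were below 0 as deposited and 2 with equal totals. Differences here and below are D391N minus control, on the log2(RPKM + 0.1) scale, which understates those of low genes. In simulated data of this design, 0% of genes given a true log2 change of 1 reached the threshold, so the absence of calls does not show that these genes were unaltered.

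OAT (ENSG00000065154, chromosome 10 of GRCh38, 124397303 to 124418923) was at 208, 138 and 168 RPKM in D391N libraries and at 202, 198 and 173 RPKM in controls. On this scale the highest library and the lowest were both D391N, and the groups overlapped. The means were 171 ± 35.1 and 191 ± 16.1 RPKM (SD, n = 3 each), a log2 difference of -0.17 (95% confidence interval -0.65 to 0.30, adjusted p = 0.636 over all genes). Leaving out D391N replicate 1 gave -0.33 for the gene sum, and leaving out D391N replicate 2 gave -0.029. Differences of 1 on the log2 scale, in either direction, lie outside this interval. Centring each library on its median turned the sign, to 0.044. With equal totals OAT was at 190.0, 203 and 206 in D391N libraries and at 172, 180 and 153 in controls, so every D391N library was higher, at a difference of 0.25 (adjusted p = 0.570). Neither the direction nor the overlap of OAT was therefore fixed by these data.

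Most of the OAT level was in OAT-204, a 646-base transcript annotated without a defined coding sequence. Its level was 150, 84.4 and 87.1 RPKM in D391N libraries and 126, 116 and 112 RPKM in controls. D391N replicate 1 was above all controls and the other two D391N libraries were below them. The difference was -0.19 (adjusted p = 0.769 over all transcripts), and 0.24 with equal totals.

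OAT-201 (ENST00000368845) is the 2039-base coding transcript and the one that the study's list of CLIPed windows names for OAT. It was at 30.4, 16.3 and 46.7 RPKM in D391N libraries and at 57.8, 58.1 and 39.5 RPKM in controls. D391N replicates 1 and 2 were below every control, and D391N replicate 3 was above control replicate 3, so the groups overlapped. The log2 difference was -0.84 (SE 0.42, 95% confidence interval -1.84 to 0.16, adjusted p = 0.342). Leaving out D391N replicate 2 moved it to -0.44 and leaving out D391N replicate 3 to -1.19, and with equal totals it was -0.41 (adjusted p = 0.593).

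The sum of the first-exon transcripts OAT-201 and OAT-208 gave the same picture as OAT-201. It was 31.5, 16.5 and 47.8 RPKM in D391N libraries and 58.7, 59.2 and 40.0 RPKM in controls. As a share of the OAT level it was 15.1%, 12% and 28.5% against 29.0%, 29.8% and 23.2%. The share differed by -8.81 percentage points (exact permutation test, two-sided, p = 0.2, n = 3 each), and by -5.52 points without D391N replicate 2 and -13.8 points without D391N replicate 3. As a share of equivalent reads, a score of precision and not of level, it differed by -20.2 points. With 3 libraries against 3, the smallest p of this exact test is 0.1. Levels of whole transcripts do not measure the short uridylated OAT fragments. The study followed those fragments by RT-PCR of small RNA, and reported them raised in D391N cells and in cells without DIS3L2. From RNA-seq it reported that binding of such fragments did not go with changes of the respective mRNA.

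OAT-202, 810 bases with no defined coding sequence, was at 3.26, 22.4 and 16.3 RPKM in D391N libraries and at 1.81, 6.14 and 3.68 RPKM in controls. D391N replicate 1 lay among the controls and the other two D391N libraries lay above them, with a difference of 1.59 (SE 0.78, adjusted p = 0.336). OAT-203 was at 9.49 to 17.3 RPKM in D391N libraries and 8.65 to 13.7 RPKM in controls. OAT-205, OAT-206 and OAT-207 were below 4 RPKM in every library, with overlapping groups, and the differences of OAT-205 and OAT-207 turned from -0.33 and -0.34 to 0.065 and 0.069 with equal totals. OAT-208, the second first-exon transcript, averaged under 1 RPKM and was not tested.

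**Figure D2:**
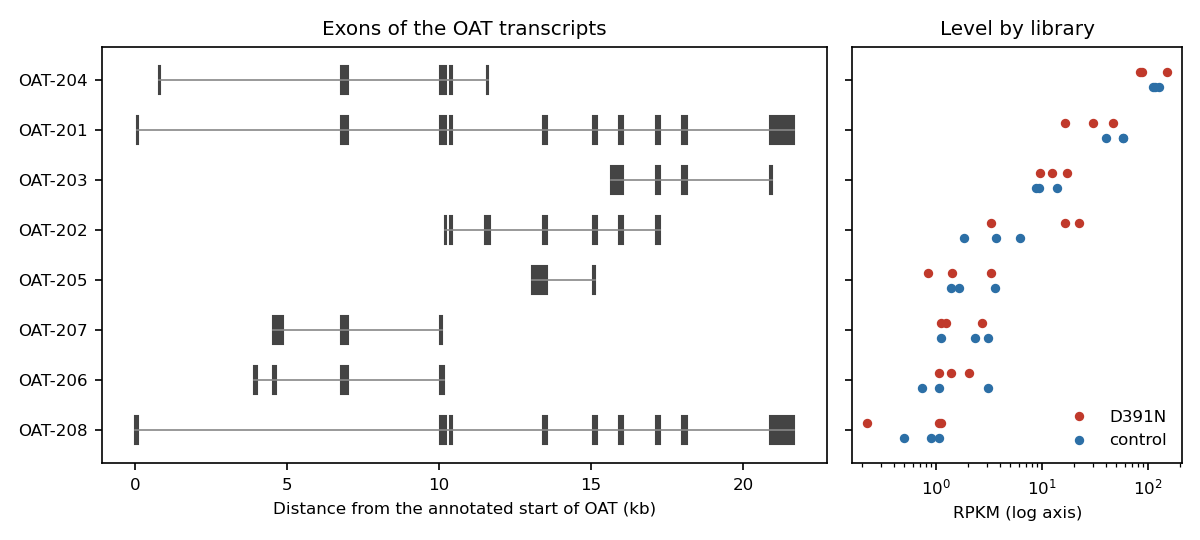
Levels of the OAT transcripts in each library, as RPKM on a log axis, with exon structures drawn by distance in kb from the annotated start of the gene. OAT-204 is highest in all 6 libraries, and the first exon is present in OAT-201 and OAT-208 only.

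ALDH18A1 (ENSG00000059573, chromosome 10, 95605941 to 95656711), the P5C synthase, was at 50.6, 62.1 and 52.8 RPKM in D391N libraries. In controls it was at 67.7, 66.5 and 70.3 RPKM. As deposited, every D391N library lay below every control, with a difference of -0.31 (SE 0.14, adjusted p = 0.245), which was -0.091 (adjusted p = 0.759) with median centring and turned to 0.12 (adjusted p = 0.832), with overlapping groups, with equal totals. Its level was divided between short and full-length forms. ALDH18A1-205, 543 bases without a defined coding sequence, had the highest mean and overlapped between groups (17.7, 32.9 and 19.5 RPKM against 27.2, 25.2 and 31.0). The 3352-base coding transcript ALDH18A1-202 was at 16.5, 10.2 and 18.8 RPKM in D391N libraries and at 22.0, 23.6 and 21.8 RPKM in controls. All 3 D391N values were below the controls, with a difference of -0.61 (SE 0.29, adjusted p = 0.326), and -0.18 (adjusted p = 0.766) with equal totals. ALDH18A1-204 (0.02) and the second coding form ALDH18A1-201 (-0.35) had overlapping groups. With equal totals the differences of ALDH18A1-201 and ALDH18A1-205 were above 0, at 0.064 and 0.13.

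PYCR1 (ENSG00000183010, chromosome 17, 81932391 to 81937300), a mitochondrial P5C reductase, was at 19.2, 19.4 and 17.5 RPKM in D391N libraries. In controls it was at 26.6, 23.4 and 29.6 RPKM. As deposited, the groups did not overlap, and the D391N libraries differed less among themselves than the controls. The difference was -0.50 (SE 0.15, 95% confidence interval -0.85 to -0.15, adjusted p = 0.136). It was -0.28 (adjusted p = 0.310) with median centring and -0.074 (adjusted p = 0.883), with overlapping groups, with equal totals. With equal totals the D391N libraries differed more among themselves (SD 5.57) than the controls (SD 2.58).

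Within PYCR1 the estimated level lay in different short transcripts in the 2 groups. PYCR1-209 (ENST00000579698, 572 bases, coding) was at 2.55, 0.783 and 1.17 RPKM in D391N libraries and at 10.1, 13.5 and 16.9 RPKM in controls. Its share of the gene was 13.3%, 4.05% and 6.73% against 38.1%, 57.7% and 57.1%. The groups were far apart, with a log2 difference of -3.21 (SE 0.45) whose adjusted p of 0.0763 was the smallest among the 21 member transcripts tested. PYCR1-212 (ENST00000583564, 377 bases, coding) went the other way, at 9.45, 14.1 and 10.5 RPKM in D391N libraries and 3.73, 1.24 and 3.37 RPKM in controls. Its log2 difference was 2.11 (SE 0.45, adjusted p = 0.127). The 2 forms share 342 of the 377 bases of PYCR1-212. Where each was low it rested on 0 to 2 equivalent reads per library, so these log2 differences depend on the pseudocount and are not bounds. With a pseudocount of 1 RPKM they were -2.57 and 1.76. Their sum was 12, 14.8 and 11.6 RPKM in D391N libraries and 13.8, 14.7 and 20.3 RPKM in controls. The sum overlapped between groups, with a difference of -0.33 (exact permutation test, two-sided, p = 0.3, n = 3 each). PYCR1-206 and PYCR1-215, the other tested forms, had overlapping groups, at differences of -0.79 and -1.27. Each fell below 3 equivalent reads in part of the libraries.

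PYCR3 (ENSG00000104524, chromosome 8), the cytosolic P5C reductase, was at 1.21, 1.56 and 0.778 RPKM in D391N libraries. In controls it was at 1.51, 1.38 and 1.54 RPKM. The lowest and the highest value were both in D391N libraries. Its sum rested on 1 to 7 equivalent reads, and none of its 7 transcripts averaged 1 RPKM, so a difference of -0.35 (95% confidence interval -1.09 to 0.40, adjusted p = 0.542), 0.050 with equal totals, was not resolvable at this precision.

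PRODH (ENSG00000100033, chromosome 22, 18912781 to 18936553), the enzyme that opens proline breakdown, was at 1.18, 1.67 and 0.845 RPKM in D391N libraries. In controls it was at 1.63, 1.70 and 2.95 RPKM. D391N replicate 2 lay above the lowest control, and the difference was -0.72 (SE 0.36, adjusted p = 0.280), and -0.31 with equal totals. None of its 15 transcripts averaged 1 RPKM, and 12 of them had under 3 equivalent reads in all libraries and held 37.8% to 71.8% of the sum. The leading form, PRODH-214, is annotated as a retained intron.

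ODC1 (ENSG00000115758, chromosome 2, 10439968 to 10448327) was at 151, 218 and 132 RPKM in D391N libraries. In controls it was at 104, 103 and 85.9 RPKM. Each D391N library exceeded each control, with D391N replicate 2 highest. The means were 167 ± 44.8 and 97.9 ± 10.4 RPKM (SD, n = 3 each). The fitted difference was 0.74 on the log2 scale, or 1.67-fold (SE 0.22 on the log2 scale, 95% confidence interval 0.21 to 1.27, adjusted p = 0.139). It was 0.96 with median centring and 1.17 with equal totals (adjusted p = 0.210), again with no overlap in the latter.

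By the estimated levels, the larger part of the ODC1 difference was in ODC1-204 (ENST00000446285), a 2358-base form annotated as a target of nonsense-mediated decay. It was at 44.3, 110 and 37.4 RPKM in D391N libraries and at 15.7, 14.5 and 16.2 RPKM in controls. All D391N libraries were above all controls, with D391N replicate 2 far above the other two. The log2 difference was 1.87 (SE 0.43, 95% confidence interval 0.86 to 2.88, adjusted p = 0.139), 1.39 without D391N replicate 2 and 2.30 with equal totals. Its share of the ODC1 level was 29.3%, 50.7% and 28.2% in D391N libraries and 15%, 14.1% and 18.8% in controls. The share was higher by 20.1 percentage points (exact permutation test, two-sided, p = 0.1, the smallest that 3 libraries against 3 allow), and by 12.8 points without D391N replicate 2. Its share of equivalent reads, a score of precision and not of level, was higher by 8.42 points.

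The main coding form ODC1-202 (ENST00000405333, 1943 bases) was at 104, 105 and 90.6 RPKM in D391N libraries and at 84.8, 84.3 and 67.7 RPKM in controls. These groups also did not overlap, with a smaller difference of 0.35 (SE 0.23, adjusted p = 0.463). ODC1-201, a further coding form, was at 1.69 to 3.78 RPKM against 1.91 to 3.94 RPKM, at a difference of -0.31 that turned to 0.096 with equal totals. ODC1-204 shares 1536 of its 2358 bases with ODC1-202, so the split between these forms is an estimate. ODC1-204 has no base that ODC1-201 lacks, and it lacks 118 of the bases of ODC1-201. The sum of ODC1-201 and ODC1-204 was 46.6, 112 and 41.2 RPKM in D391N libraries and 19.5, 18.5 and 18.1 RPKM in controls, so it also did not overlap, at a difference of 1.68. ODCP, an ODC1 pseudogene, was at 0.733 to 1.37 RPKM and differed by 0.011 (adjusted p = 0.990), and PRODHLP, a PRODH pseudogene, was at or below 0.129 RPKM in every library.

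**Figure D3:**
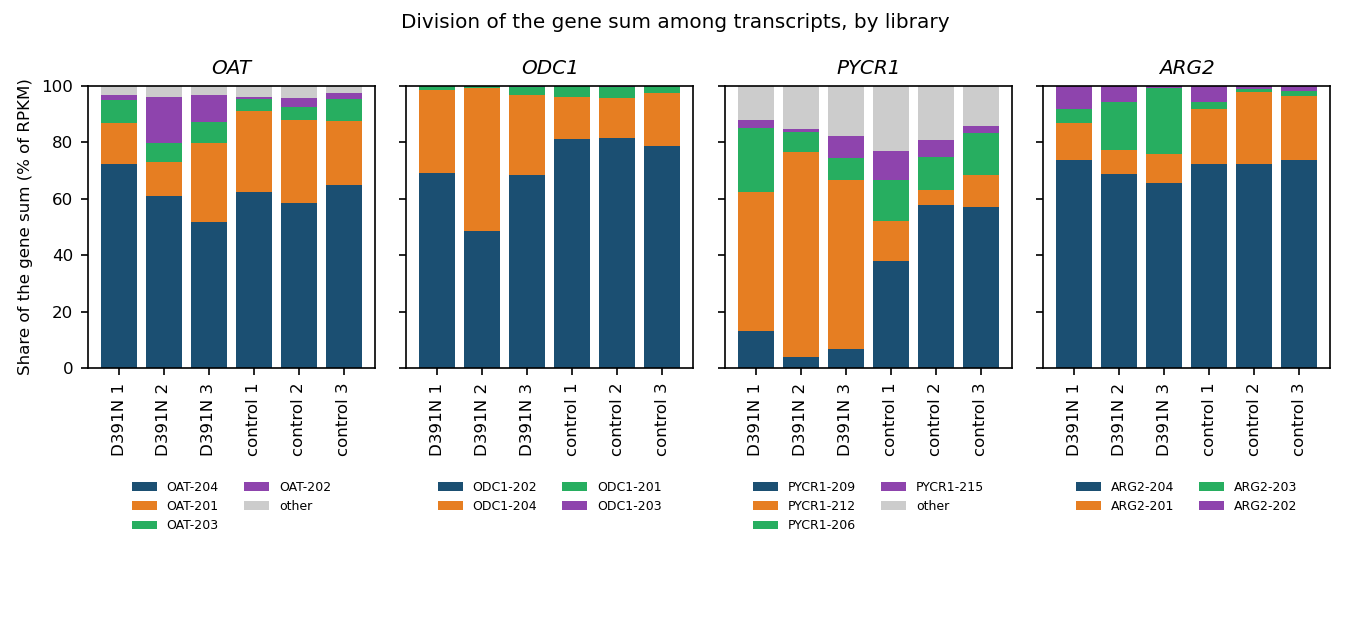
Stacked bars of the share of the gene level, in percent of RPKM, held by the transcripts of OAT, ODC1, PYCR1 and ARG2 in each library, with colours for the leading forms and grey for all others. The share of PYCR1-209 is at or below 13.3% in D391N libraries and at least 38.1% in controls, and that of ODC1-204 is at least 28.2% in D391N libraries and at most 18.8% in controls.

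ARG2 (ENSG00000081181, chromosome 14, 67619920 to 67651708) was at 27.3, 23.7 and 34.0 RPKM in D391N libraries. In controls it was at 26.9, 24.2 and 22.7 RPKM. The groups overlapped, with a difference of 0.19 (95% confidence interval -0.23 to 0.61, adjusted p = 0.549). With equal totals it was 0.62 (adjusted p = 0.249), and every D391N library was then above every control. The gene sum is led by ARG2-204, a 627-base retained-intron form, at 20.2, 16.3 and 22.4 RPKM against 19.5, 17.5 and 16.8 RPKM. This form also overlapped, with a difference of 0.12 (adjusted p = 0.816).

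The only coding form of ARG2 had lower values in every D391N library, as deposited, where the gene sum overlapped. ARG2-201 (ENST00000261783, 1911 bases) was at 3.54, 2.0 and 3.40 RPKM in D391N libraries and at 5.26, 6.13 and 5.12 RPKM in controls. Each D391N library was below each control, with a difference of -0.90 (SE 0.30, 95% confidence interval -1.62 to -0.18, adjusted p = 0.218), and -0.49 (adjusted p = 0.426) with equal totals. Its share of the gene was 13.0%, 8.43% and 10% against 19.5%, 25.4% and 22.5%. ARG2-203 (ENST00000557120, 836 bases, retained intron) was at 1.45, 4.06 and 8.04 RPKM in D391N libraries and at 0.649, 0.221 and 0.396 RPKM in controls. The controls rested on 0 to 2 equivalent reads, as did D391N replicate 1, and the log2 difference of 2.93 (SE 0.67, adjusted p = 0.140) was 1.77 with a pseudocount of 1 RPKM.

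Over all members, 21 of the 59 transcripts reached a mean of 1 RPKM and none passed an adjusted p under 0.05, against 0.0604% of all 54671 transcripts tested (0.0201% higher and 0.0402% lower). Without adjustment, 5 had p under 0.05, 3 higher (6.86% of all transcripts) and 2 lower (10.7%) in D391N cells, against 17.6% in both directions. In 7 of the 21 the groups did not overlap, against 25.8% of all transcripts. When D391N replicate 1 was left out, 4 member transcripts passed, namely ARG2-203, OAT-202, ODC1-204 and PYCR1-209, with 9.07% of all transcripts called. When gene sums were restricted to transcripts annotated as protein coding, none of the members passed, with 5.22% of all genes called. Without adjustment, 4 of the 6 members tested had p under 0.05 (limma), against 3326 of all 11351 genes. These were OAT, ALDH18A1, PYCR1 and ARG2, all with lower values in D391N cells. Coding sums were not scaled to equal totals. The difference of OAT was -0.83 (adjusted p = 0.168), that of ALDH18A1 was -0.57 (adjusted p = 0.121), and that of ARG2 was -0.90 (adjusted p = 0.0599). ODC1 was then at 0.33 (adjusted p = 0.242), and PYCR1 was the same as before, at -0.50, because all 16 of its transcripts are annotated as coding.

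**Figure D4:**
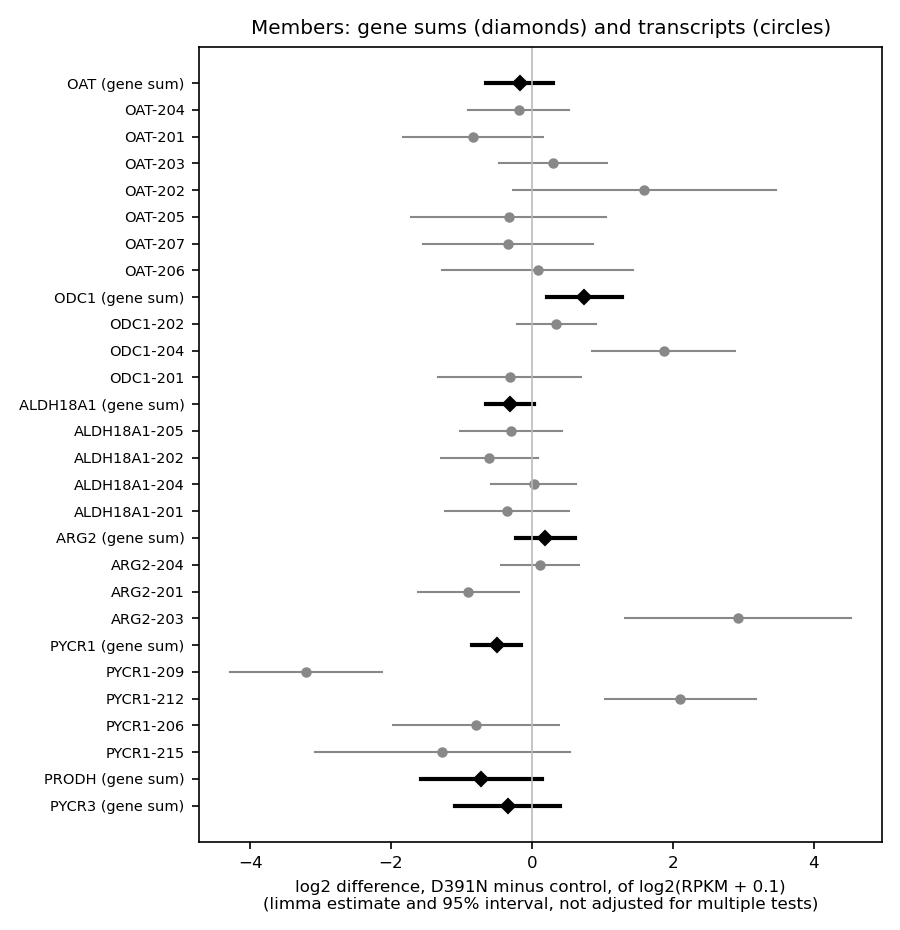
Log2 differences, D391N minus control, of the member gene sums and their tested transcripts, with bars for 95% confidence intervals. PYCR1-209 lies lowest at -3.21 and ARG2-203 highest at 2.93, while the interval of the OAT gene sum crosses 0. With libraries scaled to equal totals, the gene sums of OAT, ALDH18A1 and PYCR3 lie above 0.

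The wider pathway was taken as a list of 54 genes of proline, ornithine, glutamate, urea cycle and polyamine metabolism, 41 of which were tested. None passed an adjusted p under 0.05. Without adjustment 14 had p under 0.05, 2 with higher and 12 with lower values in D391N cells, against 6.76% higher and 16% lower of all genes. With median centring 4 had higher and 4 had lower values (24.1% of all genes in both directions), and with equal totals 5 had higher and 2 had lower values (20.1% of all genes). The median difference was -0.21, against -0.09 for all genes, and 0.21 against 0.33 with equal totals. Of the neighbours of the members, ALDH4A1, which oxidises P5C to glutamate, differed by -0.40 (adjusted p = 0.532), and GLUD1, glutamate dehydrogenase, by 0.11 (adjusted p = 0.774). SLC25A15, the mitochondrial ornithine carrier, differed by 0.25 (adjusted p = 0.608).

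On the polyamine side, SRM, the spermidine synthase that acts after ODC1, was at 22.3, 23.9 and 27.2 RPKM in D391N libraries and at 13.3, 15.8 and 14 RPKM in controls. It was above every control in every D391N library, at a difference of 0.77 (SE 0.15, adjusted p = 0.0862). AZIN1, which shields ODC1 from its antizyme, was at 53.3, 125 and 93.7 RPKM against 49.1, 54.1 and 53.7 RPKM. D391N replicate 1 of AZIN1 lay among the controls (difference 0.71, adjusted p = 0.227). OAZ1, the antizyme that sends ODC1 to degradation, differed by -0.21 (adjusted p = 0.594), and AMD1, which makes the aminopropyl donor, by -0.07 (adjusted p = 0.865). The most abundant genes of the list were SAT1, a polyamine acetyltransferase, at a mean of 880 RPKM and a difference of -0.02 (adjusted p = 0.978), EIF5A, which carries a spermidine-derived residue, at 300.2 RPKM and -0.53 (adjusted p = 0.203), and SMS, spermine synthase, at 209 RPKM and -0.13 (adjusted p = 0.713). The smallest adjusted p in the list, 0.0513, belonged to GAMT, a creatine synthesis enzyme named here after its values were seen, at 5.17, 4.89 and 4.55 RPKM against 14.4, 13.3 and 10.9 RPKM. Differences of single genes of this list, here and above, are on the deposited scale. The median of the list turned from -0.21 to 0.21 with equal totals, so the signs of small differences were not fixed.

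**Figure D5:**
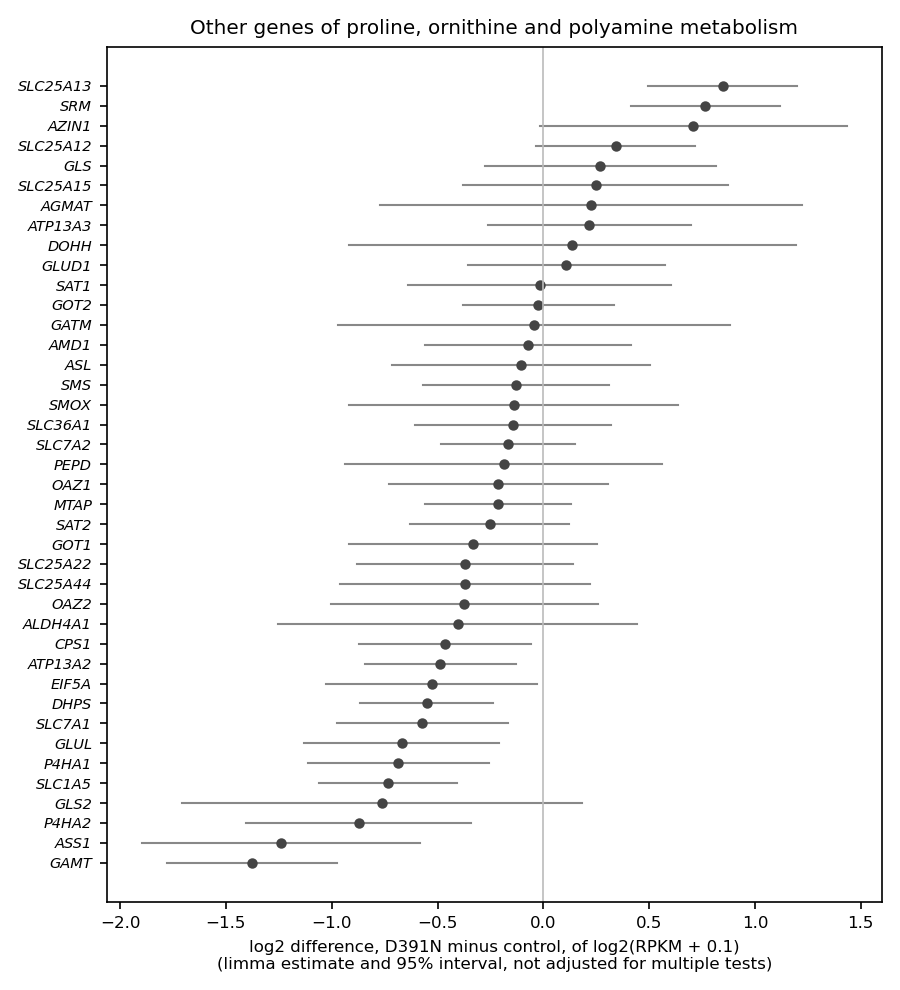
Log2 differences, D391N minus control, of tested genes of the pathway list, each with a 95% confidence interval. Values lie from -1.38 for GAMT to 0.85 for SLC25A13, and 31 of the 41 tested are below 0 as deposited, against 13 with libraries scaled to equal totals.

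Several genes of proline and serine synthesis are known targets of the stress-response factor ATF4, so a list of 14 ATF4-related genes was compared in the same fit. The list also held ATF4 itself and MYC, so it was not made of ATF4 targets alone. Of 13 tested, none passed an adjusted p under 0.05. Without adjustment 6, ATF4 and MYC among them, had p under 0.05, all with lower values in D391N cells, against 16% lower of all genes. The count was 4 with median centring and 1 with equal totals, all lower, against 1798 and 1087 of all 20714 genes lower. ATF4 itself was at 285, 251 and 282 RPKM in D391N libraries and at 398, 394 and 483 RPKM in controls. As deposited the groups did not overlap, at a difference of -0.63 (SE 0.18, adjusted p = 0.129), but with equal totals they overlapped. The median difference of the list was -0.58, below the -0.31 of the 7 members, and this was not tested. With equal totals it was -0.16.

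The pattern of OAT over the 6 libraries was compared with that of 8623 genes with a mean of at least 10 RPKM, by the root mean square difference between centred log2 levels. The 3 closest were PGAP1 (0.045), PPP2R3C (0.048) and MRPL37 (0.050), against a median of 0.36 over the genes compared. In each of them, as in OAT, D391N replicate 2 was the lowest library, which was also the library with the lowest RPKM total. The part of that total in this likeness was not tested. The other members were farther from OAT, at 0.26 for ARG2, 0.28 for ALDH18A1, 0.29 for PYCR1 and 0.58 for ODC1. As deposited, ODC1, the farthest of these, had its maximum in D391N replicate 2, where OAT had its minimum. With equal totals ODC1 kept that maximum, at 321. OAT was then at 203 in D391N replicate 2 and had its minimum, 153, in control replicate 3.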

How the data were processed

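RNA-seq values of 3 D391N and 3 control libraries of HEK293T-Rex cells were used. The authors depleted ribosomal RNA, removed adaptors with cutadapt, mapped to Ensembl transcripts of hg38 by Segemehl and estimated levels with BitSeq (versions not given in the sources used here). Per the file headers and their values, the deposited table gives, for each library and transcript, a natural log RPKM (its posterior mean from BitSeq) and a posterior variance, which was used as a precision score. The authors' BitSeq test of differential expression was not repeated.

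Means were exponentiated to RPKM, summed by gene and tested as log2(RPKM + 0.1) with limma 3.58.1 (trend) in R 4.3.3. Features with a mean of at least 1 RPKM entered, and p-values were adjusted by Benjamini-Hochberg over all features tested. Single values were compared with a two-sided exact permutation test. Tables and plots used numpy 2.4.6, pandas 2.3.3, scipy 1.17.1 and matplotlib 3.10.9 in Python 3.11.15. Equivalent reads were solved from the posterior variance. Transcript names, lengths and exons were matched by ID to GENCODE 44 on GRCh37 (90.2% of transcripts), since the authors' Ensembl release is not given in the sources used here, and gene positions are those of RefSeq on GRCh38. Whether read assignment used strand is also not given, so reads of genes that overlap on the other strand may be included.

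Tested on simulated data with 200 changed genes, 67.5% of log2 changes of 2 and 82.0% of 3 were called at the gene level, and 0% and 44.5% at the transcript level. Replicate numbers did not pair the libraries: deviations of same-numbered libraries correlated at 0.070, 0.22 and -0.11, and the labels give no shared batch. The study's methods put 3 indexed libraries in a lane without saying which, so a lane and the group or number may coincide and cannot be told apart. Named were the 7 members and their transcripts with at least 1 RPKM, DIS3L2, direct neighbours and the 3 most abundant genes of the pathway list, ATF4, any list gene past the threshold, the 3 genes most like OAT and annotated pseudogenes. The values of 1 neighbour are not reported here. Members and lists were chosen with earlier results of these data known. Alternatives were other pseudocounts, filters, scalings, limma without trend, a replicate block and leaving out each library. Scaling to equal RPKM totals, sums over coding transcripts or over transcripts with enough equivalent reads, and shares of equivalent reads, were added after the data were seen.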

Additional observations from a re-analysis of the deposited data

How the results depend on the processing

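No member gene sum passed the threshold under any alternative that gave it a value. PRODH had none with coding sums, and PRODH and PYCR3 had none with sums over transcripts of at least 1 RPKM or 3 estimated reads or at a filter of 5 RPKM. With a pseudocount of 1 RPKM, 1 member transcript (PYCR1-209) and 1 pathway gene (GAMT) passed, with 0.26% of all transcripts and 0.294% of all genes called. With sums over transcripts annotated as protein coding, chosen after seeing the data, 4 pathway genes (ASS1, GAMT, P4HA2 and SLC1A5) and 4 ATF4-related genes (MYC, PHGDH, SHMT2 and TRIB3) passed, with 5.22% of all genes called. Leaving out a library gave 0 to 4 member transcripts, 0 to 8 pathway genes and 0 to 3 ATF4-related genes, the highest counts without D391N replicate 1, when 10.9% of all genes were called. The OAT gene sum turned to 0.044 with median centring. Scaled to equal RPKM totals, chosen after seeing the data, the differences of OAT, ALDH18A1 and PYCR3 turned to 0.25, 0.12 and 0.050. The ARG2 difference turned to -0.90 with coding sums. The leading transcript's share of equivalent reads was 13.2 percentage points higher in D391N cells for OAT-204 and 15.9 higher for ARG2-204. Equivalent reads score precision, so these are not differences in the share of the level. Leaving out a library gave share differences of -5.38 (without D391N replicate 1) to 4.76 points (without D391N replicate 3) for OAT-204, -4.71 (without D391N replicate 2) to 4.31 (without D391N replicate 1) for ALDH18A1-205 and -2.18 (without D391N replicate 1) to 12.5 (without D391N replicate 3) for PRODH-214. The cause was not tested. With the replicate number as a block, no member gene or transcript was called, and the adjusted p was 0.706 for OAT, 0.182 for ODC1 and 0.426 for OAT-201. Over all features the block gave 2 called genes in place of 29 and 7 called transcripts in place of 33. The samples share only a number, and 2 of 6 libraries correlated best with the same-numbered library of the other group. Equivalent reads below 3 limit PYCR3, PYCR1-209, PYCR1-212 and ARG2-203. Among the other tested forms, PYCR1-206, PYCR1-215, OAT-206 and OAT-207 also fell below 3 in part of the libraries.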
